A study of Mus musculus with 2 samples.

Results

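The genes described here encode the epidermal growth factor (EGF)-like ligands Areg, Ereg, Btc, Epgn, Hbegf, Tgfa and Egf, and the ERBB receptors Egfr, Erbb2 and Erbb3. Members were every probe set that carried one of these 10 symbols, and no other, in the platform annotation. The rule found 20 probe sets for 9 of the 10 genes, out of 45037 probe sets that are not controls. No probe set carried Areg as its single symbol in the annotation used here, so Areg was not read. A gene counted as measured if its brightest probe set reached the floor, the median signal of an array, on at least 1 array. The floor was 37.95 on the PR knockout array and 36.2 on the wild-type array. By this rule 8 of the 10 genes were measured (5 ligands and 3 receptors), among 11316 measured genes in all. Egf was not, with signals of 17.8 on the PR knockout array and 17.8 on the wild-type array.

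RNA came from whole ovaries of PR knockout mice, which lack the progesterone receptor (gene Pgr), and of wild-type mice, both C57BL/6 and 24 to 28 days old. All were given 5 IU of PMSG, a gonadotropin that makes follicles grow, and 48 h later 5 IU of hCG, which acts like the ovulatory surge of luteinizing hormone (LH). Ovaries were taken 11 h after hCG, and each genotype was read on 1 Affymetrix Mouse Genome 430 2.0 array. The sources used here do not give how the Pgr allele was disrupted or how many mice were pooled. The labels name no promoter or cell type that would restrict the loss of the receptor.

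The EGF-like ligands are made as membrane-spanning precursors, and metalloproteases, among them ADAM17, cut them loose from the cell surface. In the ovulatory follicle LH induces some of these ligands in mural granulosa cells. They bind EGFR on cumulus cells, which then build a hyaluronan matrix and relay signals that let the oocyte resume meiosis. ERBB receptors work as pairs: EGFR binds the ligands, ERBB2 binds none by itself and serves as a partner, and ERBB3 binds neuregulins and has little kinase activity of its own.

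Each genotype was read once, so nothing below could be tested and every value is a single measurement. Genotype, the animals used and the handling of the RNA cannot be told apart. The spread that the arrays do offer is between probe sets of 1 gene, with an SD of 0.25 in the log2 difference over 4771 genes, or 1.19-fold. This spread does not cover differences between animals. In a whole ovary, fewer cells of a type and less RNA per cell cannot be told apart. The highest signal among the 3 Pgr probe sets, taken on each array separately, was 42.8 in the PR knockout ovary and 36.5 in the wild-type ovary. Both lay close to the floor, so the arrays could not check the genotype labels.

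Promoter sequences from RefSeq (GRCm38.p6) are shown for 3 ligand genes, the clustered genes Epgn and Btc, whose signals were lower in the PR knockout ovary, and Tgfa, whose signal was not. Each runs 5′ to 3′ on the gene's strand, with 250 bases before the transcript start and 50 after it. The capitals mark matches, on either strand, to 9 short motifs: the cyclic AMP response element TGACGTCA with its core TGACG, the AP-1 form TGAGTCA with its reverse complement, namely TGACTCA, the SP1-type box GGGCGG, the EGR-type box GCGTGGGCG, the steroid receptor motif TGTTCT, the CCAAT box and the TATA box in the form TATAAA. TGACGTCA always holds TGACG. The Epgn promoter is chr5:91027267-91027566 (plus strand), the Btc promoter chr5:91402945-91403244 (minus strand) and the Tgfa promoter chr6:86194972-86195271 (plus strand).
Epgn: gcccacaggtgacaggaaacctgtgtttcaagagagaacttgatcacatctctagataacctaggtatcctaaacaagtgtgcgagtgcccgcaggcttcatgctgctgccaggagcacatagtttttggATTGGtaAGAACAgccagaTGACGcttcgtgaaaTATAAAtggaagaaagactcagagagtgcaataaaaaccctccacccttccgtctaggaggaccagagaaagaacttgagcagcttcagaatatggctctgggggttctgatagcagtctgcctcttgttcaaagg
Btc: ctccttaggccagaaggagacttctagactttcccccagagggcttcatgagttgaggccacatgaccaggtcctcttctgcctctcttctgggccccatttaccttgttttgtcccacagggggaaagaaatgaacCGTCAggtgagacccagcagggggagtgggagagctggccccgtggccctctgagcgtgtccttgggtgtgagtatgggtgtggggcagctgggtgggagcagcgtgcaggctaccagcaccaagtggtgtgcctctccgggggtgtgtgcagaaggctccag
Tgfa: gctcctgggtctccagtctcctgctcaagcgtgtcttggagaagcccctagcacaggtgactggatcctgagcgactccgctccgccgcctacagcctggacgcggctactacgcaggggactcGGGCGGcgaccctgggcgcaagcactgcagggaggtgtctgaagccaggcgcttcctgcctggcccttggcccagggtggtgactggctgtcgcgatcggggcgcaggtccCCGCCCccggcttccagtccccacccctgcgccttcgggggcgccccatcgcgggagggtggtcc

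The core TGACG occurred in the promoters of Areg, Btc, Epgn and Erbb2, 4 of the 7 member genes searched, and in 20.8% of the 32851 promoters in the table. Egfr, whose signal was also lower in the PR knockout ovary, lacked TGACG in this window, and Ereg had no promoter in the table. A link between motif and signal was not tested. The whole element TGACGTCA was found in the Areg promoter, 61 bases before the start counted to its first base, and in 1.79% of all promoters. In Epgn the core began 101 bases before the start, near AGAACA, the reverse complement of the steroid receptor motif TGTTCT, which began 113 bases before it and occurs in 19.0% of all promoters. Epgn also held ATTGG, the reverse complement of CCAAT (37.4% of all promoters), and TATAAA (13.6%). The GGGCGG box (35.7% of all promoters) was in Areg, Egfr and Tgfa. The AP-1 forms (5.20% each) and GCGTGGGCG (0.612%) were in none of the 7. These matches are letters in a short window and do not show binding.

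Among the ligand genes, Ereg and Epgn had much lower signal in the PR knockout ovary. Btc was also lower, but near the floor, and Hbegf and Tgfa were higher only by about the spread between probe sets. Of the 8 measured members, 2 were at least 2-fold lower (Ereg and Epgn) and 0 at least 2-fold higher. The share of all measured genes past 2-fold was 1.72% downward and 1.15% upward. Over the 8 members the median log2 difference (PR knockout minus wild type, as throughout) was -0.52, and over all measured genes it was 0.06. In the same ovaries surface epithelium markers had lower signal in 8 of 9 genes and granulosa markers higher signal in 9 of 10. Of all measured genes, 42.2% were lower and 57.7% higher. The part of these marker shifts in the members' differences was not tested.

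Ereg encodes epiregulin, a ligand that binds EGFR and ERBB4. Its 1 probe set gave a signal of 157.8 in the PR knockout ovary, against 2367 in the wild-type ovary. The signal was thus 15.0-fold lower, a log2 difference of -3.91. It was still 4.16 times the floor in the PR knockout, so the transcript stayed readable there. Ereg had the 4th lowest log2 difference of the 11316 measured genes. This rank depends on the floor, which was used for 1 signal in 683 of those genes. With no floor Epgn, at -3.96, lay below Ereg. Among the 1684 other measured genes whose mean log2 signal lay within 0.5 of that of Ereg, 0 differed as far downward.

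Epgn encodes epigen, an EGFR ligand best known from epithelia. Its 1 probe set gave 19.7 in the PR knockout ovary, under the floor, against 306.5 in the wild-type ovary, 8.46 times the floor there. With the PR knockout signal set to the floor, Epgn was at least 8.08-fold lower, a log2 difference of -3.01. Epgn passed the rule for measured genes through the wild-type array alone. Because the floor sets this value, Epgn has no exact place among the measured genes. The size of the bound follows the floor: with the floor raised to the 70th percentile the log2 difference was -1.26, and with no floor it was -3.96.

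Btc encodes betacellulin, which binds EGFR and ERBB4 and is among the ligands that LH induces in follicles. Its brighter probe set gave 40.9 in the PR knockout ovary, barely above the floor, and 79.0 in the wild-type ovary. That is 1.93-fold lower, or -0.95 on the log2 scale. The other probe set lay under the floor on both arrays, at 10.7 in the PR knockout and 18.6 in the wild type. The difference passed 2-fold after each of 3 rescalings of the arrays. With the mean over both probe sets it was -0.02, with that mean under the floor in the PR knockout and just above it in the wild type.

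**Figure D1:**
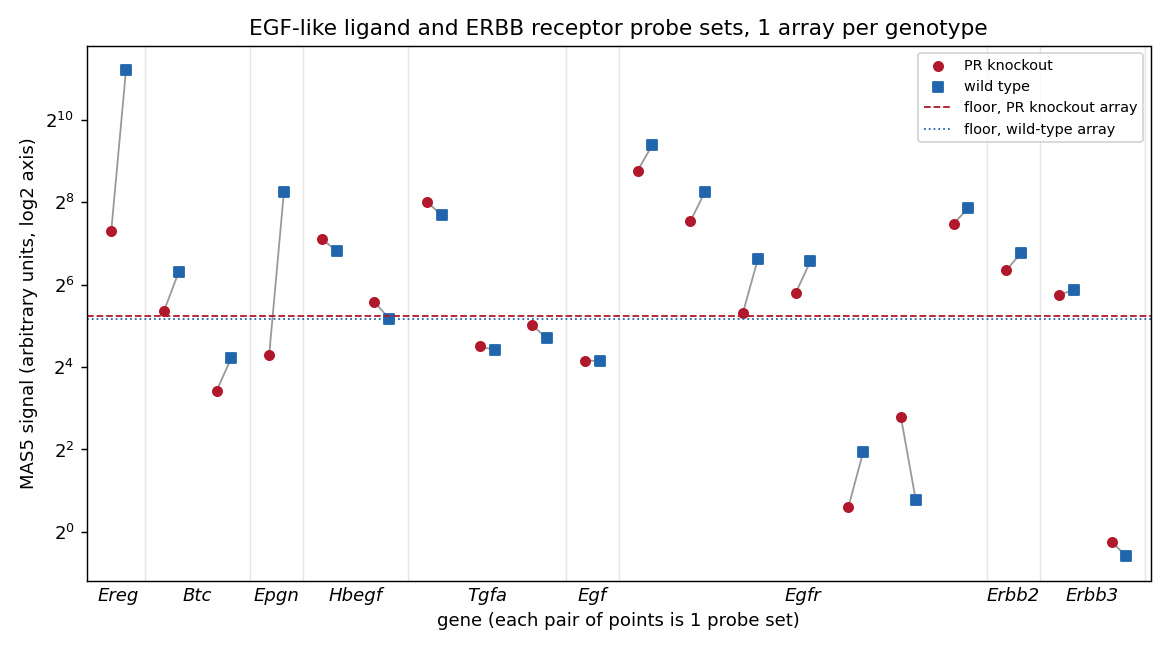
MAS5 signal (log2 axis) of each member probe set, with the PR knockout array as red circles, the wild-type array as blue squares and each array's floor as a horizontal line. Ereg and Epgn show the steepest lines, with 157.8 against 2367 and 19.7 against 306.5, and the upper 5 Egfr pairs all slope the same way.

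Hbegf and Tgfa encode the EGFR ligands heparin-binding EGF-like growth factor and transforming growth factor alpha. The brighter Hbegf probe set gave 138.5 in the PR knockout ovary and 112.9 in the wild-type ovary, 1.23-fold higher. Its other probe set gave 47.9 in the PR knockout and 36.1, just under the floor, in the wild type, a log2 difference of 0.40. Tgfa gave 257.7 in the PR knockout ovary and 205.7 in the wild-type ovary, 1.25-fold higher. Both differences are close to the 1.19-fold spread between probe sets of a gene. Among genes of like signal, 29.6% were as far upward as Hbegf and 20.6% as far upward as Tgfa. The other Tgfa probe sets were under the floor on both arrays, at 22.6 and 32.3 in the PR knockout and 21.4 and 25.9 in the wild type.

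**Figure D2:**
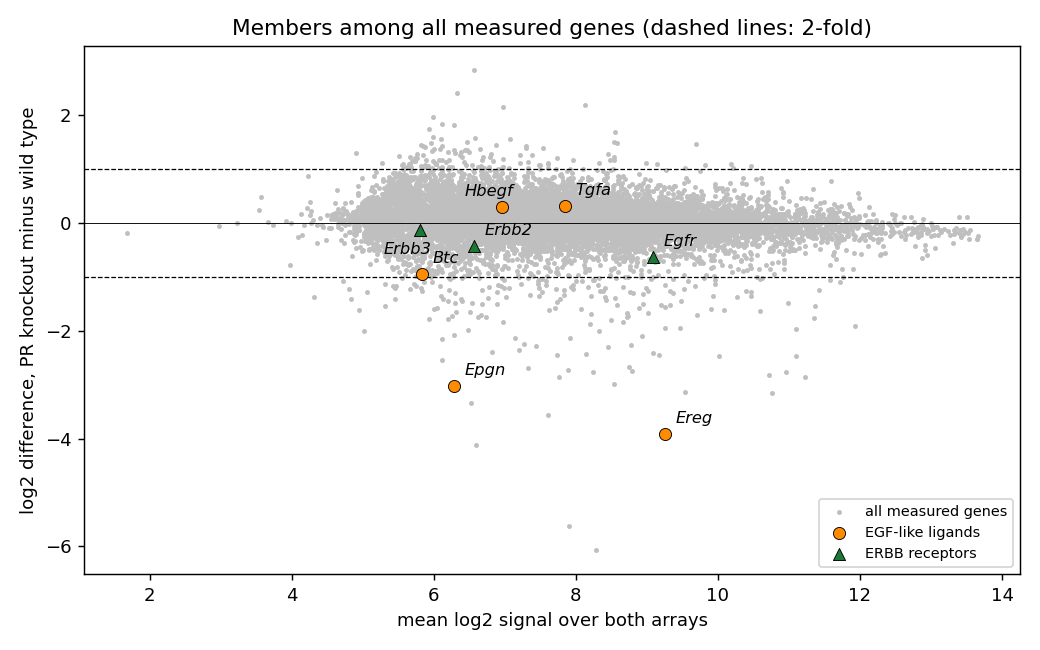
Log2 difference (PR knockout minus wild type, vertical) against mean log2 signal over both arrays (horizontal) for each measured gene in grey, with the ligands as orange circles and the receptors as green triangles. Ereg at -3.91 and Epgn at -3.01 lie far below the cloud, while Hbegf at 0.29, Tgfa at 0.33 and Erbb3 at -0.14 lie inside it.

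Egfr, the receptor tyrosine kinase for all of these ligands, had lower signal in the PR knockout ovary in each of its 5 measured probe sets. The brightest gave 437.2 in the PR knockout and 676.1 in the wild type, 1.55-fold lower, or -0.63 on the log2 scale. The next brightest gave 186.3 in the PR knockout and 306.6 in the wild type. Another probe set gave 179.1 in the PR knockout and 232.5 in the wild type, the smallest difference of the set at -0.38. The dimmer pair of measured probe sets gave 55.6 against 95.0, and 40.1 against 98.0, with the PR knockout first in each. The last of these, at -1.29, had a PR knockout signal close to the floor. Over the 5 probe sets the log2 difference was -0.76 ± 0.33 (SD, n = 5 probe sets of 1 gene, which are not replicates of a genotype). Which Egfr transcript forms each probe set reads was not analysed here.

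The difference passed 2-fold in 1 of these probe sets, and the gene's brightest one stayed below it. Among the 1871 genes with a mean signal like that of Egfr, 74 (3.96%) had a difference as low, and the 5th percentile of their log2 differences was -0.55.

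Erbb2, the partner receptor, gave 81.6 in the PR knockout ovary and 109.1 in the wild-type ovary, 1.34-fold lower. Erbb3 gave 53.6 in the PR knockout and 58.9 in the wild type, 1.10-fold lower, within the spread between probe sets. Of genes with a like signal, 10.4% were as low as Erbb2 and 27.0% as low as Erbb3. Both genes were dim on these arrays, at 2.15 and 1.41 times the floor in the PR knockout. The second Erbb3 probe set was under the floor on both arrays, at 0.85 in the PR knockout and 0.66 in the wild type. All 3 receptors thus had lower signal in the PR knockout ovary, as did 42.2% of measured genes.

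Epgn, Ereg, Areg and Btc lie next to each other on mouse chromosome 5 in RefSeq, whereas Hbegf, Tgfa and Egf lie on other chromosomes. The 3 ligand genes read in this cluster were the 3 with lower signal. The 5 protein-coding genes on each side were then read, a choice made after the members' values were seen. Mthfd2l, a folate enzyme gene next to Epgn, gave 173.2 in the PR knockout and 164.6 in the wild type, a log2 difference of 0.07. Parm1, a membrane mucin gene next to Btc, gave 313.0 in the PR knockout and 782.0 in the wild type, a log2 difference of -1.32. Beyond it, Rchy1, a ubiquitin ligase gene, was at -0.08 and the kinase gene Cdkl2 at 0.45. On the other side the chemokine gene Cxcl1 was at -0.32, and Cxcl2, Cxcl3 and Cxcl15 were under the floor on both arrays. The remaining 2 flanking genes had no probe set with that single symbol.

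**Figure D3:**
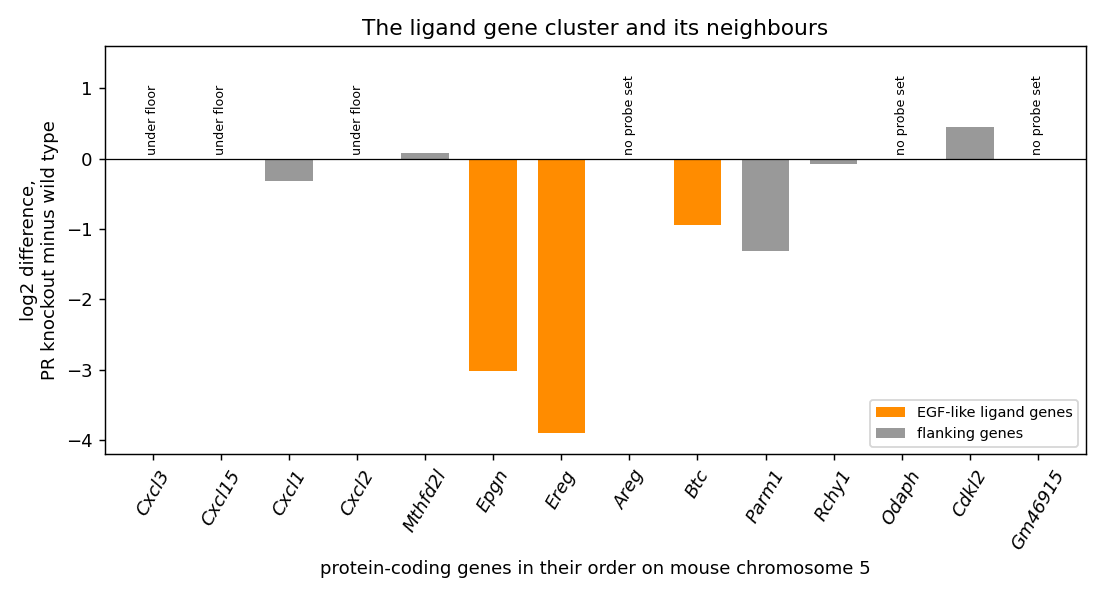
Log2 difference (PR knockout minus wild type) for protein-coding genes in their order along mouse chromosome 5, with ligand genes in orange and flanking genes in grey. The bars of Epgn (-3.01), Ereg (-3.91) and Btc (-0.95) point down together with that of Parm1 (-1.32), while Mthfd2l (0.07) and Rchy1 (-0.08) stay near 0.

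The other branch of the family was hardly readable. Of the neuregulin genes Nrg1 to Nrg4 and their receptor gene Erbb4, 1 of 5 was measured. This was Nrg2, at 41.1 in the PR knockout and 54.3 in the wild type, a log2 difference of -0.40. Erbb4, which Ereg, Btc and Hbegf products can also bind, gave 0.90 in the PR knockout and 1.14 in the wild type, far under the floor.

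Genes for shedding and trafficking of the ligands were divided. Of 14 measured of 15, 7 were lower and 7 higher in the PR knockout, against 42.2% and 57.7% of all measured genes. The median was -0.07. At least 2-fold higher were 0, against 1.15% of all measured genes, and at least 2-fold lower was 1, against 1.72%. That gene was Adam8, a metalloprotease gene of leukocytes and other cells, at 70.5 in the PR knockout and 198.5 in the wild type. Rhbdf2, whose product carries ADAM17 to the cell surface, was 1.85-fold lower, at 145.9 against 269.9 in the wild type. Adam19, another metalloprotease gene, was 1.45-fold lower. Frmd8, which stabilises the complex of ADAM17 with its carrier, was 1.35-fold higher. Adam17 itself, outside the rule for named genes and given for its role, had 564.7 in the PR knockout and 450.4 in the wild type, 1.25-fold higher. Its 3 measured probe sets gave log2 differences between 0.01 and 0.44.

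Adaptors and kinases below the receptors showed 0 of 22 measured genes at least 2-fold apart, with 13 lower, 9 higher and a median of -0.03, each gene read by its brightest probe set. The probe sets of the kinase gene Pik3ca disagreed: the brightest gave -0.30 on the log2 scale and another 1.40, past 2-fold upward. The list holds 28 genes, and 6 had no probe set with that single symbol. The farthest from equality were the transcription factor gene Stat3, 1.93-fold lower, and the small GTPase gene Nras, 1.83-fold lower by its brightest probe set but with others up to -0.10 on the log2 scale. The adaptor gene Gab2 was 1.53-fold and the transcription factor gene Stat5a 1.51-fold higher.

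Negative regulators of ERBB and ERK signalling, many of them induced by the pathway they restrain, were more often lower. All 24 were measured, 18 lower and 6 higher, against 42.2% and 57.7% of all measured genes, with a median of -0.27. Past 2-fold there were 5 lower genes and 0 higher ones, against 1.72% and 1.15% of all measured genes. As with the other lists, earlier results of these data were known when this one was drawn up. Errfi1, whose product binds and inhibits the EGFR kinase, gave 885.8 in the PR knockout and 6420 in the wild type, and its 2 probe sets gave -2.86 and -2.80 on the log2 scale. Dusp5, a nuclear ERK phosphatase gene, gave 80.6 in the PR knockout and 585.1 in the wild type. Cblb, a ubiquitin ligase gene that targets activated receptors, was 2.87-fold lower, and its 3 probe sets gave log2 differences between -1.52 and -1.12. Dusp4, another ERK phosphatase gene, was 2.81-fold lower. Spry2, a feedback inhibitor gene named here because it completes the count, was 2.67-fold lower.

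**Figure D4:**
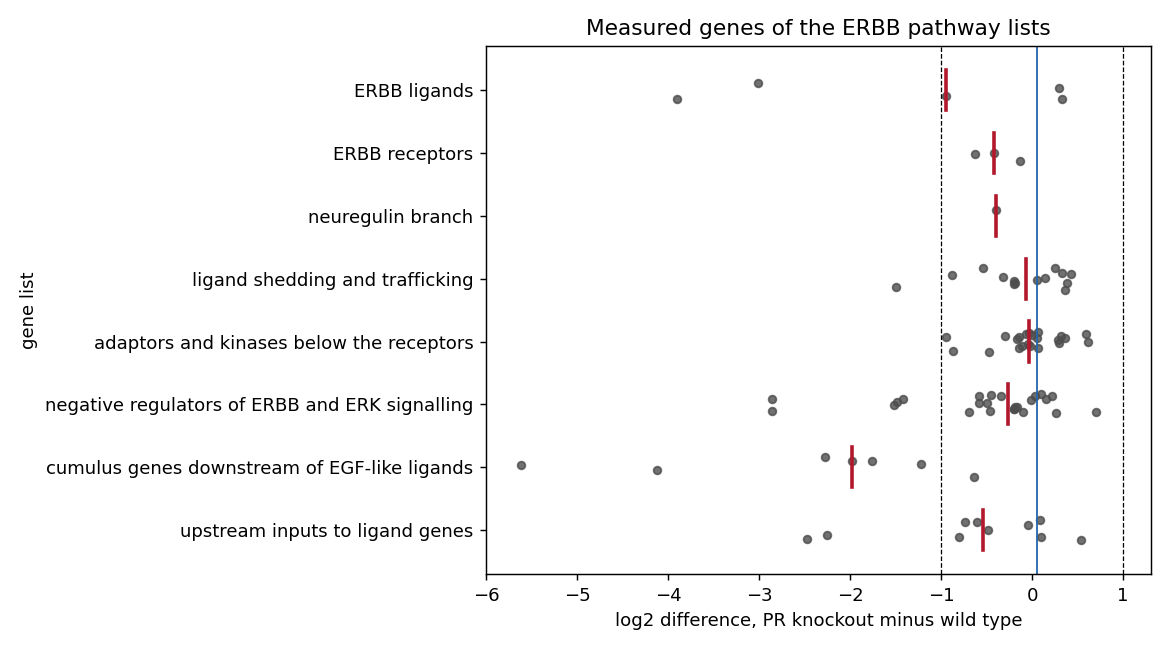
Log2 difference (PR knockout minus wild type, horizontal) of each measured gene in 8 lists around the ERBB receptors, with each list's median as a red bar, the median of all measured genes as a blue line and 2-fold as dashed lines. The ligands split widely around a median of -0.95, the adaptors and kinases sit near 0, and the cumulus genes all lie to the left.

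Cumulus genes known to respond to EGF-like ligands were lower in all 7 measured of 8, 6 of them by at least 2-fold, with a median of -1.98. Of all measured genes, 42.2% were lower and 1.72% at least 2-fold lower. The list was drawn up with earlier results of these data known, so its direction is no independent evidence. Ptgs2, the inducible prostaglandin synthase gene, and the cytokine gene Il6 were under the floor in the PR knockout, at 30.6 and 14.1, against 1871 and 660.6 in the wild type. Has2, the hyaluronan synthase gene, was under the floor there too, at 8.87 against 88.7 in the wild type, so 3 of the 6 counted as measured through the wild-type array alone. With the PR knockout signal set to the floor, Has2 was at least 2.34-fold lower. The other Has2 probe set gave -0.45 on the log2 scale, short of 2-fold. The matrix gene Vcan was counted by its brightest probe set, but its 4 probe sets ran from -2.98 to -0.54. The matrix genes Tnfaip6 and Ptx3 were 4.84-fold and 3.94-fold lower. Inputs to the ligand genes, a list also drawn up with earlier results known, had a median of -0.55. Lower signal was read for 7 of 10 measured, against 42.2% of all measured genes. At least 2-fold lower were 2, against 1.72% of all measured genes. These were the immediate-early transcription factor genes Egr1, at 934.9 in the PR knockout and 5195 in the wild type, and Fos, at 201.3 and 962.1 in the same order. The prostaglandin receptor gene Ptger4, coupled to cyclic AMP, was 1.74-fold lower and the transcription factor gene Cebpb 1.67-fold lower.

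Cell type markers differed between the arrays in both directions. Granulosa markers were higher in the PR knockout in 9 of 10 genes, as were 57.7% of all measured genes, and 0 passed 2-fold. Their summed signal was 24774 in the PR knockout and 22363 in the wild type. Cumulus markers, which share matrix genes with the list above, summed to 609.2 in the PR knockout and 1123 in the wild type, with 4 of 5 lower. Surface epithelium markers were lower in 8 of 9 genes, against 42.2% of all measured genes, and summed to 1280 in the PR knockout and 1922 in the wild type. At least 2-fold lower were 3 of them, against 1.72% of all measured genes. Those 3 were the keratin genes Krt7, Krt8 and Krt18. Theca markers summed to 17759 and 20632, and oocyte markers, all 9 measured, to 3245 and 2862, with the PR knockout first. Of the 5 theca markers measured, 3 were lower and 2, Ptch1 and Gli1, higher. The theca sum leaned on Cyp11a1 and Star. Leukocyte markers summed to 907.9 in the PR knockout and 846.2 in the wild type, with 6 of 9 measured, but 4 of those 6 were lower and the median log2 difference was -0.11. The sum leaned on Csf1r, at 379.8 in the PR knockout and 277.4 in the wild type. Endothelial markers summed to 1550 in the PR knockout and 1244 in the wild type, stroma markers to 18665 and 16561, and smooth muscle markers to 9259 and 9813, in the same order. Of the adipose markers only Fabp4, which endothelial cells and macrophages also express, was measured, at 70.9 in the PR knockout and 335.1 in the wild type. Of the 6 oviduct markers, Ovgp1, Foxj1, Krt5 and Pax8 were under the floor on both arrays. The epithelial adhesion genes Epcam, at 29.0 in the PR knockout and 42.1 in the wild type, and Cdh1, at 46.5 in the PR knockout and 58.0 in the wild type, were dim and lower in the PR knockout. The part of these shifts in the lower Ereg, Epgn, Btc and Egfr signals was not tested.

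**Figure D5:**
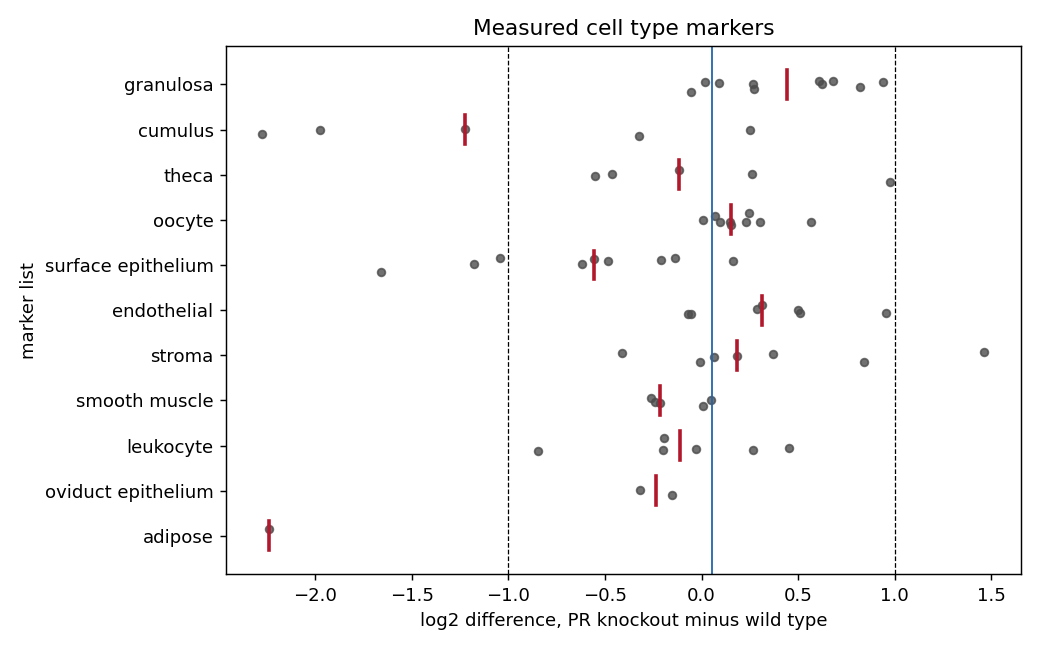
Log2 difference (PR knockout minus wild type, horizontal) of each measured marker gene in 11 cell type lists, with each list's median as a red bar, the median of all measured genes as a blue line and 2-fold as dashed lines. The granulosa points lie mostly right of 0, the surface epithelium and cumulus points mostly left of it.

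The genes nearest to each member in both log2 signals were found over the 2 arrays, a likeness that includes how bright a probe set is. Nearest to Ereg were Btg2, Rnf125 and Socs3, at distances of 0.67 to 1.05 log2 units. Nearest to Epgn were Ldhd, Has1 and Fosl1, at 0.37 to 1.01 log2 units, and all 3 were under the floor in the PR knockout, at 22.2, 21.9 and 28.3. Nearest to Egfr were Susd3, Fgl2 and Rhoj, within 0.07 log2 units. Egfr lies in a dense region of the plot of difference against signal, and Ereg in a sparse one.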

How the data were processed

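Total RNA from 1 PR knockout and 1 wild-type ovary sample was labelled from 100 ng with a kit that primes at the 3′ end, per the labels' protocols. The deposited values are linear intensities, 1 for each probe set on each array. The authors obtained them with Affymetrix Expression Console version 1 and its MAS5 method, per the submitters' processing notes. The mean intensity after trimming 2% at each end was 150 on both arrays. MAS5 subtracts mismatch probes, which makes low intensities noisy, and no detection calls were used here. The 64 control probe sets among 45101 were left out, and 10092 others carried no gene symbol or several. For each gene the probe set brightest in mean log2 intensity was used, intensities under the array's median were raised to it, and differences were taken on the log2 scale (Python 3.11.15, pandas 2.3.3, statsmodels 0.14.6). The calculation was tested on simulated data. The number of arrays limits the precision, and no batch is given in the labels. Named genes were all members, the 4 largest differences of each pathway list and the 3 nearest genes for Ereg, Epgn and Egfr. Symbols were matched to RefSeq (GRCm38.p6). Of the 10 members, 7 had an entry in the promoter table and were searched. Ereg, Hbegf and Erbb3 were not. Members and lists were chosen with earlier results of these data known. Alternatives varied the floor, an offset, the scaling, the choice of probe set and the fold threshold.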

Additional observations from a re-analysis of the deposited data

How the results depend on the processing

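The count of 2 members at least 2-fold lower and of 0 at least 2-fold higher was recomputed under 10 alternatives. Ereg and Epgn were at least 2-fold lower in every one of them, and 0 members were at least 2-fold higher in any. The lower count was 3 with median centring, quantile normalization or removal of the loess trend, when Btc joined. At a 1.5-fold threshold it was 4, with Btc and Egfr, against 4.75% of all measured genes. The median log2 difference of the measured members ran from -0.63 with the 70th-percentile floor, under which 5 members were measured, to -0.42 with no floor or with the mean over probe sets. Of the single genes, Ereg ran from -3.97 to -3.66, Egfr from -0.70 to -0.45, Hbegf from 0.20 to 0.35 and Tgfa from 0.24 to 0.33. None of the 8 measured members changed sign in any alternative under which it was measured. Those were 7 alternatives for Btc and Erbb2, 6 for Erbb3 and 8 for the other members. Epgn ran from -3.96 to -1.26 and Btc from -1.05 to -0.02, since both lay at or near the floor in the PR knockout. With the offset of 32, Btc was at -0.61 and Epgn at -2.71. No paired analysis was possible because each genotype has 1 array.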

Other observations

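Of the 20 member probe sets, 7 lay under the floor on both arrays and took no part in the comparison. The largest ratio among them belonged to an Egfr probe set at 6.88 in the PR knockout and 1.72 in the wild type, which runs against the 5 measured Egfr probe sets. Another Egfr probe set gave 1.51 in the PR knockout and 3.80 in the wild type. Signals this far below the floor have no reliable order.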
